A study of Mus musculus with 8 samples.

Results

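The nuclear factor I (NFI) family comprises 4 protein-coding genes of the mouse, Nfia, Nfib, Nfic and Nfix, and all 4 were found by symbol among 21887 protein-coding genes of the RefSeq annotation. Peaks of all 8 deposited lists were collected at their gene ends (within 1 kb of either gene boundary), in the gene body and within 50 kb on both sides, which is called the window of a gene below. The family was selected on its peak counts and folds in these same lists, so all values are descriptions and none was tested.

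NFI proteins are transcription factors that bind DNA as homodimers or heterodimers through a conserved amino-terminal domain and recognise a palindrome built from the core TTGGC. Nfia and Nfib are known for the onset of gliogenesis in the neural tube and brain, and Nfix for the progression of neural stem cells and cerebellar and hippocampal development. Nfic is best known for tooth root formation. Chd7 and Chd8 are chromatin remodelers that move nucleosomes with the energy of ATP.

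ChIP-seq, which sequences DNA immunoprecipitated with a chromatin protein, was used to map both remodelers in cells carrying O4, a surface antigen of the oligodendrocyte lineage. Magnetic sorting took these cells from the cortex and corpus callosum of WT mice of postnatal day 7, with no genetic change or treatment in any group, and the labels name them oligodendrocyte precursor cells (OPCs). There were 8 libraries, of which 2 were replicate ChIPs of Chd7, with a single Chd8 ChIP, rabbit IgG precipitations as 2 mocks, and 3 inputs of chromatin without antibody. The extraction notes name the O4 antibody for the remodeler complexes, whereas the sample labels name anti-Chd7 and anti-Chd8 antibodies, and the sample labels were used. Mock 1 served Chd7 replicate 1, and mock 2 was shared by Chd7 replicate 2 and Chd8. Chd8 has no replicate. Track names inside the files give Chd7 replicate 2 the number 3 and Chd8 the number 2, the reverse of the titles, and the titles were followed. The labels do not say whether the Chd7 replicates came from separate animals. ChIP lists held 5218, 6237 and 18350 peaks for Chd7 replicate 1, Chd7 replicate 2 and Chd8 once peaks touching a mock peak were removed, and none of the removed peaks lay in an NFI window. Mock lists contained 89 and 98 peaks, input lists 109486, 178478 and 91628. As a check of the label, 7 of 8 OPC and oligodendrocyte lineage markers had a Chd8 peak at a gene end, beside 1 of 5 astrocyte, 2 of 5 neuron, 1 of 5 microglia and 0 of 5 endothelial and mural markers, and 41.0% of all genes had one. Input 3 had a peak at 6 of 8, 3 of 5, 4 of 5, 1 of 5 and 1 of 5 in the same order. Chd7 replicate 1 had one at 1 of 8 OPC and oligodendrocyte markers and replicate 2 at 4 of 8, and at 0 and 1 of the other 20. Occupancy is not expression, so this describes the lists and does not measure purity.

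The genes differ in length and surroundings. In mm10 coordinates Nfia lies on chromosome 4 from 97578066 to 98118876 (541 kb) and Nfib on the same chromosome from 82290173 to 82506751 (217 kb). Nfix lies on chromosome 8 from 84704712 to 84801238 (96.5 kb) and Nfic on chromosome 10 from 81396191 to 81431919 (35.7 kb). The windows of Nfia and Nfib held no other protein-coding gene, but long non-coding RNA (lncRNA) genes, 1 gene of another RNA type and pseudogenes. The windows of Nfic and Nfix were crowded with protein-coding genes, and Lyl1 (84701423 to 84704716) overlaps the lower boundary of Nfix by a few bases. RefSeq start sites were available for Nfia (1), Nfic (1) and Nfix (4).

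The start windows that the results turn on are printed here from RefSeq (GRCm38.p6, 250 bases before to 50 after a start, in the direction of the gene). Capitals mark the bases under a Chd8 peak, or, for Gm19417 alone, the bases under a Chd7 replicate 1 peak. The Nfia window (chr4:97581693-97581992, plus strand), the Nfix window of the start at 84772875 (chr8:84772826-84773125, minus strand) and the Nfic window (chr10:81427124-81427423, minus strand, no peak) show member starts with and without Chd8. Gm19417 (chr4:97868960-97869259, minus strand) is a lncRNA gene inside Nfia whose start carried the strongest Chd8 peak of the family. Gm11266 (chr4:82507739-82508038, plus strand) is a lncRNA gene whose start lies 1238 bp from the upper boundary of Nfib, under the Chd8 peak that reached the Nfib gene end.
Nfia: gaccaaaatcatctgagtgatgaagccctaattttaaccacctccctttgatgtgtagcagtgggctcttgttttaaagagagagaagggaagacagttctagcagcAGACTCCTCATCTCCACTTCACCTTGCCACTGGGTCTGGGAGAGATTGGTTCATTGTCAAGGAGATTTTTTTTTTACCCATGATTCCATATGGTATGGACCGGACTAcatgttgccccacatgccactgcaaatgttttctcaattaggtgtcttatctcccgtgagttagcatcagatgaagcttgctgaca
Nfix: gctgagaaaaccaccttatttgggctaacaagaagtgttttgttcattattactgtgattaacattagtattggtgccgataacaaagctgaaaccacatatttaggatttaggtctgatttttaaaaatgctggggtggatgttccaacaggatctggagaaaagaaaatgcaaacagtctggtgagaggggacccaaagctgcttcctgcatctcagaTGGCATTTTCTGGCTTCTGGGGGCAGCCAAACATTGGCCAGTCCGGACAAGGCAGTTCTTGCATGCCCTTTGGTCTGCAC
Nfic: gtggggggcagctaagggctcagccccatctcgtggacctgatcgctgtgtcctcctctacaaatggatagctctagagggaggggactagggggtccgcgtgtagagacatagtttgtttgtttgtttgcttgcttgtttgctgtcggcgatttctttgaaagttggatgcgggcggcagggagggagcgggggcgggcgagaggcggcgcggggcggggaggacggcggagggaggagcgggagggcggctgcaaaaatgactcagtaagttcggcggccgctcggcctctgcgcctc
Gm19417: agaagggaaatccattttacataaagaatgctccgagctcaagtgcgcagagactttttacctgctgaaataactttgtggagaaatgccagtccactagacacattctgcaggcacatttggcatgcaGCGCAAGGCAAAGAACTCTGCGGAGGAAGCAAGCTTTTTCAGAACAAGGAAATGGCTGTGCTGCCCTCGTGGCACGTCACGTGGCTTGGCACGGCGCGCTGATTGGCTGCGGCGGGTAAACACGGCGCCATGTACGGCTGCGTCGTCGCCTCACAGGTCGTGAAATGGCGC
Gm11266: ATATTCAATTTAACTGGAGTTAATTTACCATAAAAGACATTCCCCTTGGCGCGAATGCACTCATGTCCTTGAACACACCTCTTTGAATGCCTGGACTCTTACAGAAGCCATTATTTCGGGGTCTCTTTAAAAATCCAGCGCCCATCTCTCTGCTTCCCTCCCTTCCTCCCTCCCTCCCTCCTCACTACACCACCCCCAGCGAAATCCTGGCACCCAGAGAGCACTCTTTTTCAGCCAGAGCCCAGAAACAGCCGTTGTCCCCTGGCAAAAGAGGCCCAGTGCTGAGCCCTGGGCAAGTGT

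The 5 windows differ in composition. CpG dinucleotides numbered 2 at Nfia and 2 at this Nfix start, 6 at Gm11266, 20 at Gm19417 and 24 at Nfic, and the median over 32851 RefSeq start windows was 7. GC content was 44.7%, 44.3%, 51.3%, 53.7% and 63.0% in the same order, beside a median of 52.7%. The core TTGGC, searched on both strands, occurred 3 times at Gm19417, 2 times at this Nfix start, once at Gm11266 and in neither the Nfia nor the Nfic window; 46.7% of all start windows hold it. The full NFI palindrome, in which TTGGC and GCCAA stand 5 bases apart, was in none of the 5 and in 0.0365% of all start windows. The GC box GGGCGG, also searched on both strands, occurred 4 times at Nfic and in none of the other 4 windows, and 35.7% of all start windows hold it. These are letter matches and not measured binding. Both member start windows under Chd8 had fewer CpGs than the median window, and the Nfic start, with more, carried no ChIP peak. Of the other start windows under Chd8 near the members, Gm11266 also had fewer. The rest had more: 20 at Gm19417, 35 at the Hmg20b start at 81350457, 40 at Fzr1, 29 at Dohh, 17 at Calr and 15 at 1700122E12Rik. The other 3 Nfix start windows, with 4, 9 and 13 CpGs, had no ChIP peak inside their 300 bases. Over all start windows 25.8% were overlapped by a Chd8 peak.

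All 4 NFI genes had Chd8 peaks, and with flanks of 50 kb Nfia and Nfix had more of them than any other protein-coding gene. The Nfia window held 20 Chd8 peaks, the Nfix window 20, the Nfib window 9 and the Nfic window 8, 57 in all. Over all protein-coding genes 71.5% had at least 1 Chd8 peak in the window, and the median was 2. A count of 20 was reached by 0.00914% of genes, which are Nfia and Nfix themselves. The next genes, named after their values were seen, were Gm37013, Gm38666, Gm38667 and Olig1 with 16 each. At least as many peaks as Nfib and Nfic have were found in 1.64% and 2.77% of genes. These counts are not corrected for window length, and the relation of count to length was not tested. A longer window than that of Nfia (641 kb) was found for 195 genes, and a longer one than that of Nfix (197 kb) for 2534. Nfix no longer led when weaker peaks or peaks in the matching input were left out: 494 genes had more peaks with a fold of at least 5, and 11 did without input 3 peaks, where Nfix had 12. The window mattered as well: with flanks of 100 kb 5 genes had more peaks than Nfia and 4 more than Nfix, and with flanks of 10 kb 4 had more than Nfix. No gene had more than Nfia with a fold of at least 5 or without input 3 peaks, where 9 and 16 peaks were left, but 22 genes had more with a −log10 q of at least 5, where 4 were left.

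**Figure D1:**
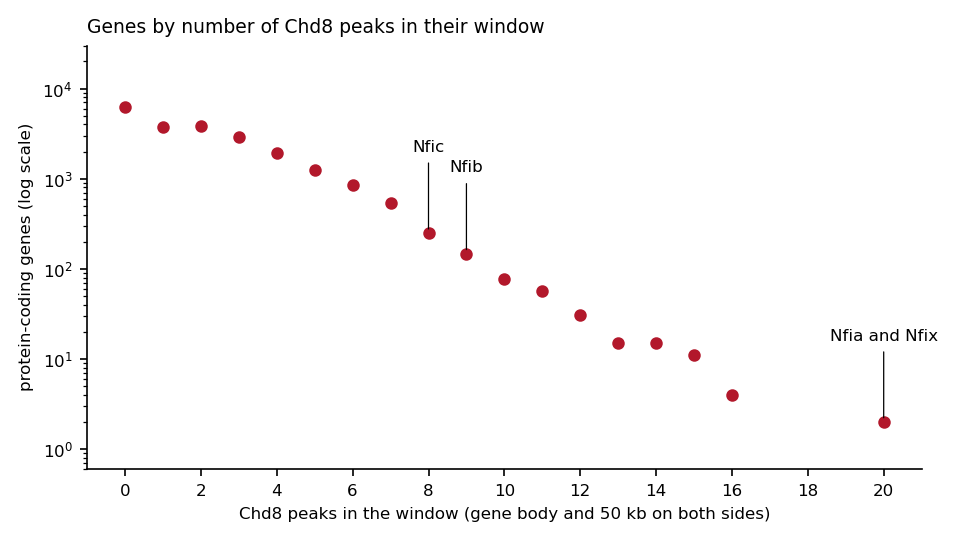
Number of protein-coding genes (y axis, log scale) with each number of Chd8 peaks in the window of gene body and 50 kb on both sides (x axis). Each point is a count of genes, and counts that no gene has are not drawn. Nfia and Nfix stand at 20 peaks, past the 4 genes at 16, and Nfib and Nfic at 9 and 8.

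Per 100 kb of window, Chd8 peaks were densest at Nfix with 10.2, followed by Nfic with 5.89, Nfia with 3.12 and Nfib with 2.84, and the median over all genes was 1.12. With 1 Chd8 library there is no replicate spread to rank neighbours in this order by. Densities of at least these sizes were found in 0.256%, 3.68%, 17.9% and 21.0% of genes. The inputs differed among the members. Input 3, which the labels match to Chd8, had 16.3 peaks per 100 kb at Nfix and 20.6 at Nfic but 2.03 at Nfia and 1.58 at Nfib, and its median over all genes was 4.21. Inputs 1 and 2 were likewise below their all-gene medians of 3.44 and 6.28 at Nfia (2.03 and 2.50) and Nfib (0.632 and 1.90). At Nfic they had 8.10 and 10.3, and at Nfix 3.56 and 7.12. Per 100 kb, Nfia and Nfib were thus above the median gene for Chd8 and below it for all 3 inputs. Nfic was above it for Chd8 and all inputs, and Nfix for Chd8 and input 3. In inputs 1 and 2, 48.3% and 42.6% of genes were at least as dense as Nfix. In input 3 only 4.21% of genes were at least as dense as Nfix and 1.22% as Nfic. At least as many input 3 peaks as at Nfix and Nfic were found in 0.553% and 1.16% of genes. In number of peaks the long Nfia window was above the median gene in the inputs too, with 13, 16 and 13 peaks against medians of 5, 8 and 6. The part of input signal in the Chd8 counts was not tested. All 3 inputs had a peak in every NFI window, and over all genes 91.9%, 95.4% and 92.5% had one. Neither mock had a peak in any NFI window or at any NFI gene end, and over all genes 0.306% and 0.311% had one in the window and 0.0183% and 0.0137% at an end.

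**Figure D2:**
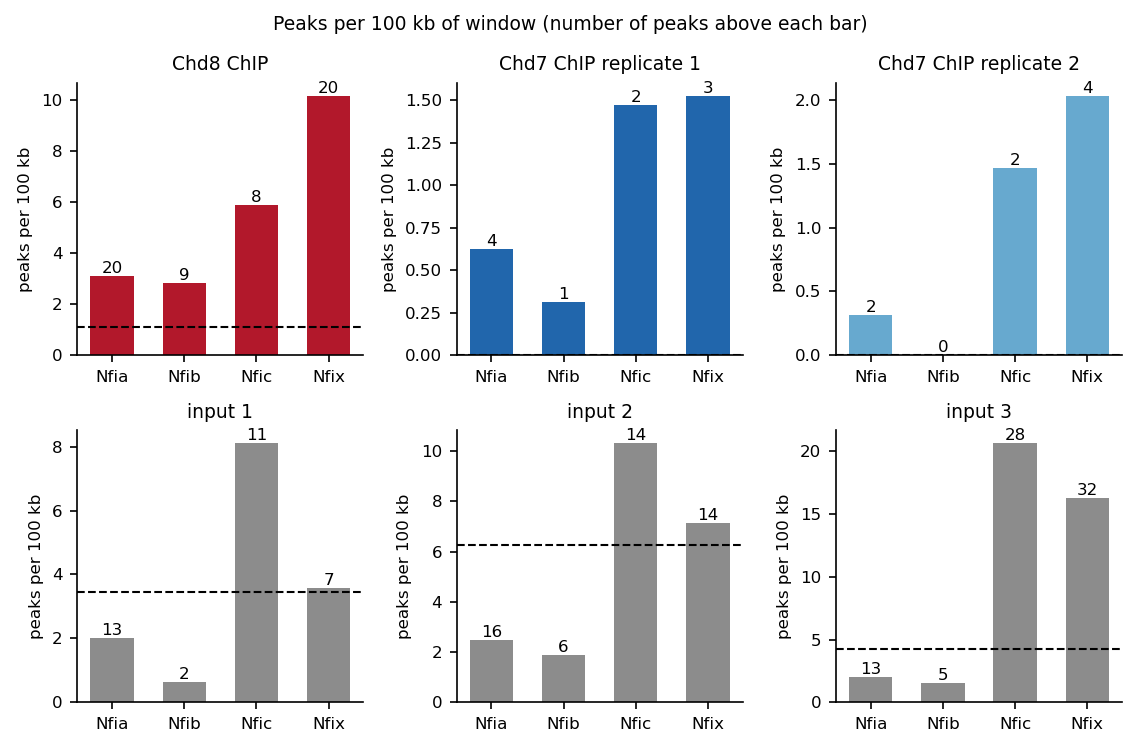
Peaks per 100 kb of window (y axis, linear from 0) for each NFI gene in the Chd8, Chd7 and input libraries, 1 bar per gene and library. Numbers above the bars are peaks, and the dashed line is the median over all 21887 protein-coding genes, which is 0 for both Chd7 libraries. Nfia and Nfib lie above the line for Chd8 and below it for all 3 inputs.

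Chd7 peaks were fewer than Chd8 peaks in each window. Replicate 1 had 4 in the Nfia window, 1 at Nfib, 2 at Nfic and 3 at Nfix, and replicate 2 had 2, 0, 2 and 4. Both libraries thus had peaks in 3 of 4 windows, and Nfib had a single Chd7 peak, of replicate 1. The share of all genes with peaks of both libraries in the window is not given here, so this joint count has no background. Over all genes 37.6% had a replicate 1 peak and 47.8% a replicate 2 peak in the window, and the median was 0 for both. At least 4 replicate 1 peaks, as at Nfia, were found in 1.35% of genes, and at least 3, as at Nfix, in 4.18%. At least 4 replicate 2 peaks, as at Nfix, were found in 2.20%. The remaining counts were reached more often, by 13.1% of genes for the 2 replicate 1 peaks of Nfic and by 20.1% for the 2 replicate 2 peaks of Nfia and of Nfic. Per 100 kb, densities of at least that of Nfia were found in 31.6% and 46.3% of genes for replicates 1 and 2, and at least that of Nfix in 8.59% and 5.88%. Of the 10 replicate 1 peaks, 9 overlapped a Chd8 peak (90.0%, exact 95% Clopper-Pearson interval 55.5 to 99.7), and of the 8 replicate 2 peaks, 5 did (62.5%, 24.5 to 91.5). Over the whole lists these shares were 78.8% and 62.2%. Such intervals cover counting error over peaks only. In the other direction, 12 of 57 Chd8 peaks (21.1%, 11.4 to 33.9) were overlapped by a peak of either Chd7 library, beside 35.4% of all Chd8 peaks. Replicate 1 overlapped 9 of them and replicate 2 overlapped 5, and over the Chd8 list the libraries overlapped 22.2% and 21.1%. An input 1 peak overlapped 2 of the 10 replicate 1 peaks and an input 2 peak 2 of the 8 replicate 2 peaks, beside 15.2% and 32.8% of their lists. With any of the 3 inputs these numbers were 4 of 10 and 5 of 8, beside 38.8% and 62.2%. Ends of protein-coding genes took 3 of 10 and 2 of 8, all of them neighbours of Nfic or Nfix, beside 37.1% and 51.4% of the lists. An lncRNA gene end alone took 1 of 10 and 0 of 8, beside 4.73% and 4.02%.

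**Figure D3:**
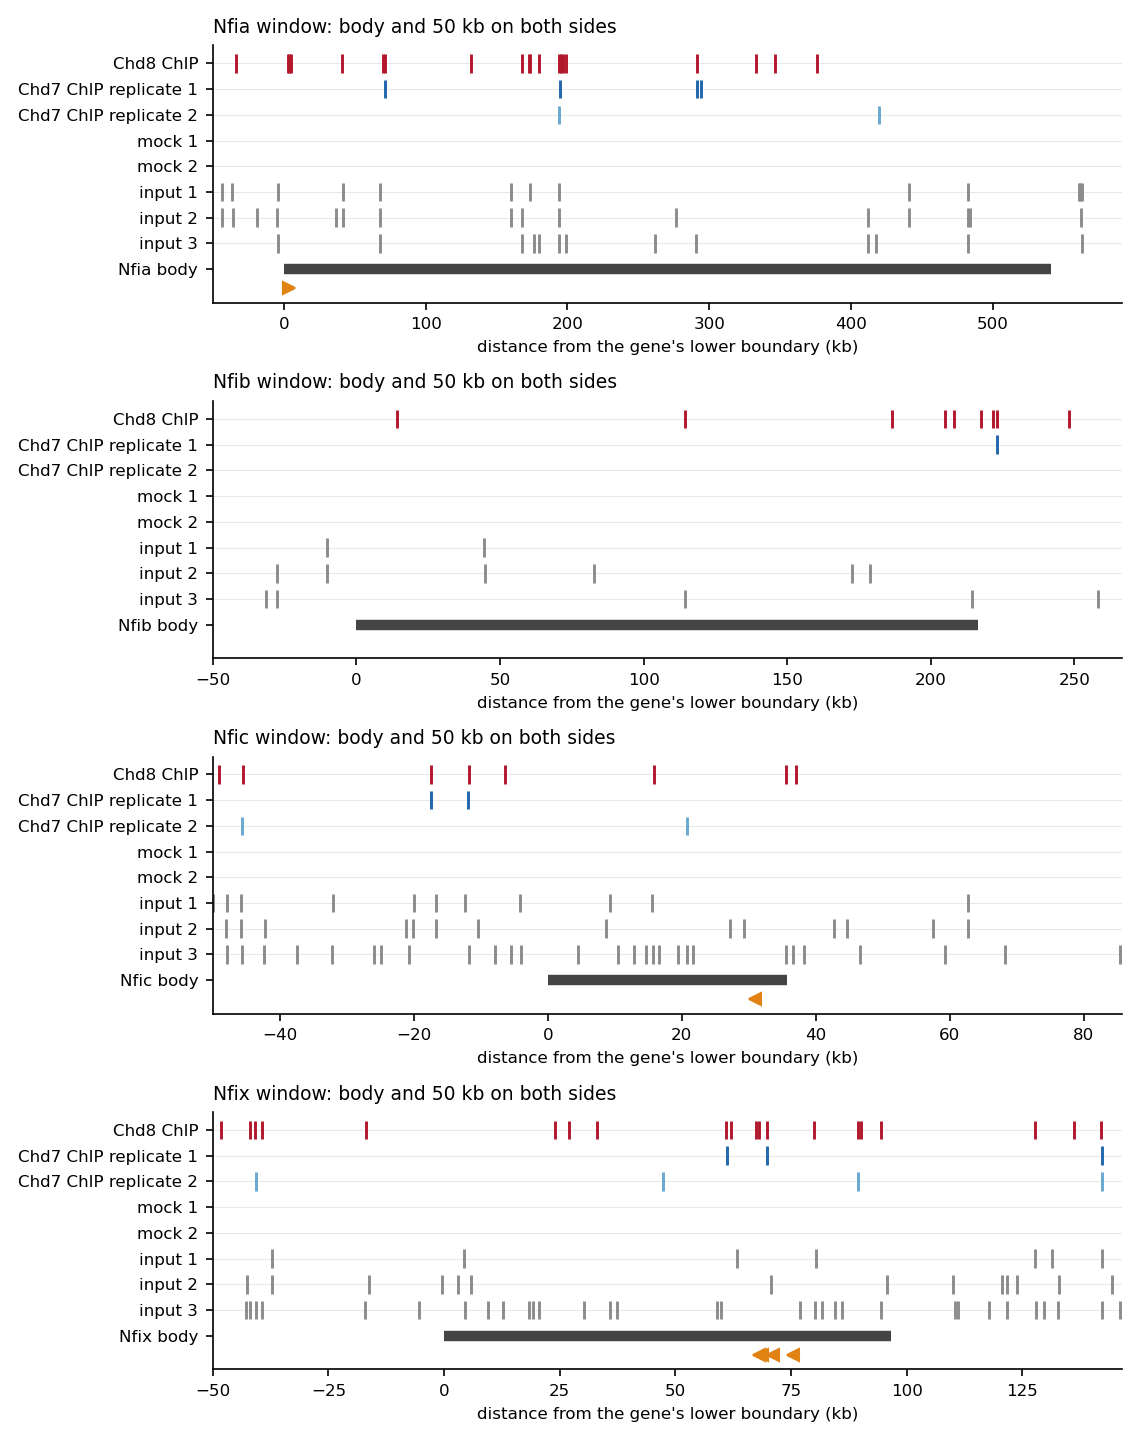
Peak midpoints (vertical ticks) of the 8 libraries along the window of each NFI gene. The x axis is the distance from the gene's lower boundary in kb, the dark bar is the gene body, and orange arrowheads are RefSeq starts pointing in the direction of transcription. Both mock rows are empty, Chd8 peaks spread through the Nfia body up to 376 kb, and Chd7 replicate 2 has no tick at Nfib.

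At the gene ends themselves Chd7 was absent from the lists and Chd8 was listed at 2 of 4 members. No Chd7 peak of either replicate lay within 1 kb of a boundary of any NFI gene, and 10.4% and 17.0% of all genes had one. Most genes thus lacked such a peak, and its absence from 4 genes does not set the family apart. Chd8 peaks lay at an end of Nfib (fold 4.33, 82507098 to 82508408) and of Nfic (fold 4.31 and 4.36, the latter 886 bp outside the gene), beside 41.0% of all genes. Just outside the limit of 1 kb was a Chd8 peak of Nfix with a fold of 3.81, 1868 bp from its boundary. At the window limit of 50 kb the last Chd8 peak inside lay 48.96 kb from Nfic (fold 3.81) and the first outside 55.8 kb from Nfix (fold 4.38). The annotated boundaries are those of the longest transcript models, and RefSeq starts lie inside them. Within 1 kb of a RefSeq start, Chd8 peaks were found at Nfia and Nfix but not at Nfic, where the nearest was 4.36 kb away. Across protein-coding genes with a RefSeq start 43.6% had a Chd8 peak within 1 kb of one, 11.1% a Chd7 replicate 1 and 18.0% a replicate 2 peak. With either a boundary or a start allowed, a setting chosen after the data were seen, Chd8 was listed at all 4 members and Chd7 at none, beside 44.2% of all genes for Chd8 and 11.4% and 18.5% for Chd7 replicates 1 and 2.

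Nfia, the member most tied to the onset of gliogenesis, held the strongest peaks of the family in all 3 ChIP libraries. Fold is the authors' value of a peak over the caller's local background, and it ranks peaks only within a list. The Nfia site with a peak in all 3 ChIP libraries, and in all 3 inputs, lay in the body 194 kb above the lower boundary. There Chd8 had a peak from 97771835 to 97772729 with a fold of 7.37, Chd7 replicate 1 one from 97772126 to 97772766 with 5.88, and Chd7 replicate 2 one from 97772008 to 97772647 with 5.28. Only 2.70% of Chd8, 4.70% of replicate 1 and 0.417% of replicate 2 peaks had folds as high. Both Chd7 libraries overlapped in 1383 regions of the genome, and 16.8% of genes had such a region in the window, Nfia and Nfix among the members. By mean fold the Nfia region ranked at place 14 (5.58), and it was 1 of 10 with a fold of at least 5 in both libraries. All 3 inputs also had a peak inside it, with folds of 4.44, 4.02 and 4.20, as did 22.8% of these regions. A Chd8 peak overlapped 97.1% of them. The part of input signal in this site was not tested. It falls out of every ChIP list when peaks of the matching input are removed.

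A second strong Nfia site, 71 kb above the lower boundary, had no peak in any input. Chd7 replicate 1 had there its strongest family peak, from 97649345 to 97649501 with a fold of 6.28, a value reached by 2.05% of its list. Chd8 had a peak from 97649027 to 97649957 with a fold of 6.34 (6.74% of its list), and Chd7 replicate 2 had its nearest peak 123 kb away. This site thus rested on 1 Chd7 library and on Chd8.

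The highest Chd8 fold of the family, 8.30 (1.28% of the list), lay 291 kb inside Nfia from 97868546 to 97869602, over the start of the lncRNA gene Gm19417 printed above. Chd7 replicate 1 had a peak with a fold of 4.72 there, whose overlap is the capital run of the Gm19417 sequence (171 bases of the start window). Input 3 had a peak at the same place, inputs 1 and 2 had none, and Chd7 replicate 2 had none. Replicate 1 had another peak 2980 bp from the Gm19417 start, from 97871989 to 97872492 with a fold of 4.25, without Chd8 or input. Replicate 2 had its other Nfia peak at 419 kb with a fold of 3.30, also without Chd8 or input. Of 5 Chd7 sites of Nfia, 1 was therefore found in both Chd7 libraries. Over the genome the Chd7 lists of 5218 and 6237 peaks shared 1383 regions, so most peaks of either list were in 1 library as well.

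Chd8 alone marked the Nfia start. A peak from 97581800 to 97581906 with a fold of 5.36 ended 37 bp from the RefSeq start, and its 107 bases are the capitals of the Nfia sequence above. A stronger peak (fold 5.96) lay 758 bp from the start, and a weaker one 1054 bp from it, at 3.81, the lowest fold in the Chd8 list. None of these 3 overlapped a Chd7 or an input peak, and the nearest input peaks were about 8 kb away. The nearest Chd7 peaks were 67.4 kb (replicate 1) and 190 kb (replicate 2) from the start. Further Chd8 peaks gathered within the lncRNA gene Gm38709, inside Nfia, where 7 peaks fell in 26.8 kb, including the site shared with Chd7. Inputs 1, 2 and 3 had 2, 1 and 4 peaks in the same span, and the part of input signal was not tested. The last Chd8 peak of the Nfia body ended at 97954266. The 165 kb of body after it, free of Chd8 by this choice of limit, had no Chd7 replicate 1 peak. Chd7 replicate 2 had 1 peak there, and inputs 1, 2 and 3 had 2, 4 and 3.

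**Figure D4:**
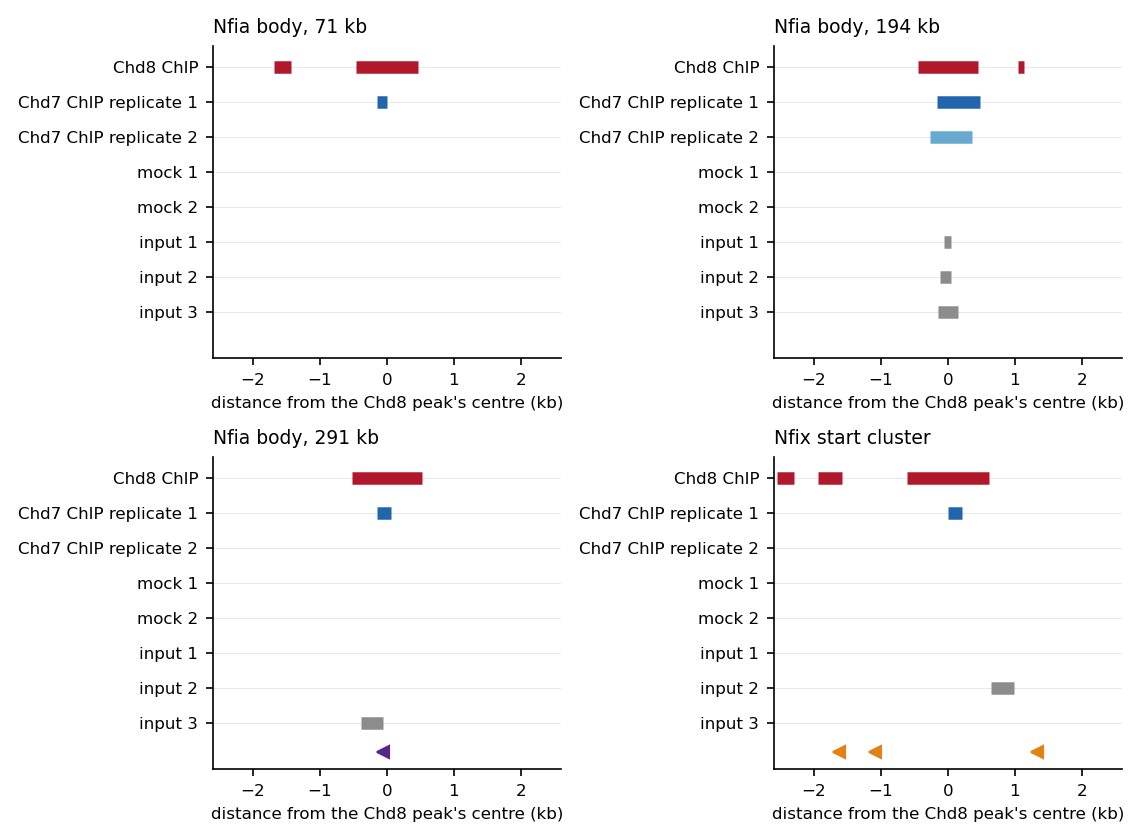
Extent of the peaks of each library (horizontal bars) around 3 Chd8 peaks of the Nfia body and 1 of Nfix, with the distance from the centre of the Chd8 peak in kb on the x axis. Arrowheads are RefSeq starts of Nfix (orange) and of Gm19417 (purple). At 194 kb the Chd8, both Chd7 and all 3 input rows carry a peak, whereas at 71 kb the rows with a peak are Chd8 and Chd7 replicate 1.

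Nfib, known for its part in glial and lung development, had Chd8 peaks that mostly overlapped no input peak. Inputs 1, 2 and 3 had 2, 6 and 5 peaks in its window, and the part of input signal was not tested. Of its 9 Chd8 peaks, 8 overlapped no input peak, while 46.3% of the whole Chd8 list overlapped a peak of any input. The strongest had a fold of 6.72 (4.66% of the list) and lay in the body from 82494980 to 82495412, without Chd7 or input. The other 8 folds ranged from 3.81 to 5.01. Its upper boundary drew most of them, and 6 of the 9 had their midpoint between 205 and 248 kb above the lower boundary. The widest one, 1311 bp with a fold of 4.33, covered the whole Gm11266 start window shown above. The single Chd7 peak, in replicate 1 with a fold of 4.96, overlapped a weak Chd8 peak (3.97) outside the gene at 223 kb, and the nearest replicate 2 peak was 287 kb away.

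Nfix held its Chd8 peaks at its starts, through its body and at the ends of neighbours. Of the 20 peaks, 12 lay in the body and 8 in the flanks, and 6 of the 8 touched an end of another protein-coding gene. Within 1 kb of its 4 RefSeq starts there were 3 Chd8 peaks, with folds of 3.86, 3.85 and 5.52, and none overlapped an input peak. The first 2 were weak, with folds reached by 87.8% and 88.2% of the Chd8 list. The peak with a fold of 3.85 covers the start at 84772875 and supplies the 80 capital bases of the Nfix sequence. The widest of the 3 Chd8 peaks, from 84773876 to 84775111, was 1236 bp long. It was overlapped by a Chd7 replicate 1 peak with a fold of 4.61, which lay 1.09 kb from the nearest start. Just past its upper end, input 2 had a peak from 84775140 to 84775480 (fold 3.23). That input peak lay 348 bp from the start at 84775828, and the nearest Chd8 peak lay 717 bp from it. The start at 84780082 had no Chd8 peak within 4.48 kb. At 2 more body sites Chd8 coincided with 1 Chd7 library and no input: at 61 kb replicate 1 (4.28) with Chd8 (4.66), and at 89 kb replicate 2 (3.22) with Chd8 (4.98).

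Most flank peaks of Nfix lay at other genes. Both Chd7 libraries shared 1 region in this window, from 84846401 to 84847521, which lies at the ends of Calr, the gene of the chaperone calreticulin, and of the lncRNA gene 1700122E12Rik, 142 kb above the lower boundary of Nfix. Its folds were 4.78 and 3.31 for Chd7 and 4.86 for Chd8, it ranked at place 818 of 1383, and inputs 1 and 3 had a peak there. Chd8 peaks with folds of 4.59 and 5.40 stood at an end of the immediate early gene Ier2, and the highest fold of the window, 5.77, was at 84664822 to 84665679, at no protein-coding end. Input 3 had peaks at all 3. Chd8 peaks also lay at ends of Nacc1 (3.88) and, as 1 peak, of Dand5 and Gadd45gip1 (4.09). No ChIP peak was found at the ends of Trmt1 or Lyl1.

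Nfic had few peaks of its own. Of its 8 Chd8 peaks, 5 lay in the flank, and all 5 touched ends of other protein-coding genes: Hmg20b (3.81 and 5.01), of the CoREST corepressor complex, Fzr1 (5.12), an activator of the anaphase-promoting complex, Dohh (5.85), which encodes an enzyme of hypusine synthesis, and Gm48552 (3.92). All 3 Chd7 peaks of the flank lay at Fzr1, Dohh and Hmg20b, each over a Chd8 peak. Within the body Chd8 had 1 peak (4.35) and Chd7 replicate 2 had 1 (3.43), the latter at the microRNA gene Mir1191b, and both overlapped input 3. The 2 Chd8 peaks at the Nfic gene end also overlapped input 3. No ChIP peak at an end or in the body of Nfic was therefore free of input, and the part of input signal was not tested. Mfsd12, 4930404N11Rik, Smim24 and Celf5 had no ChIP peak at an end.

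**Figure D5:**
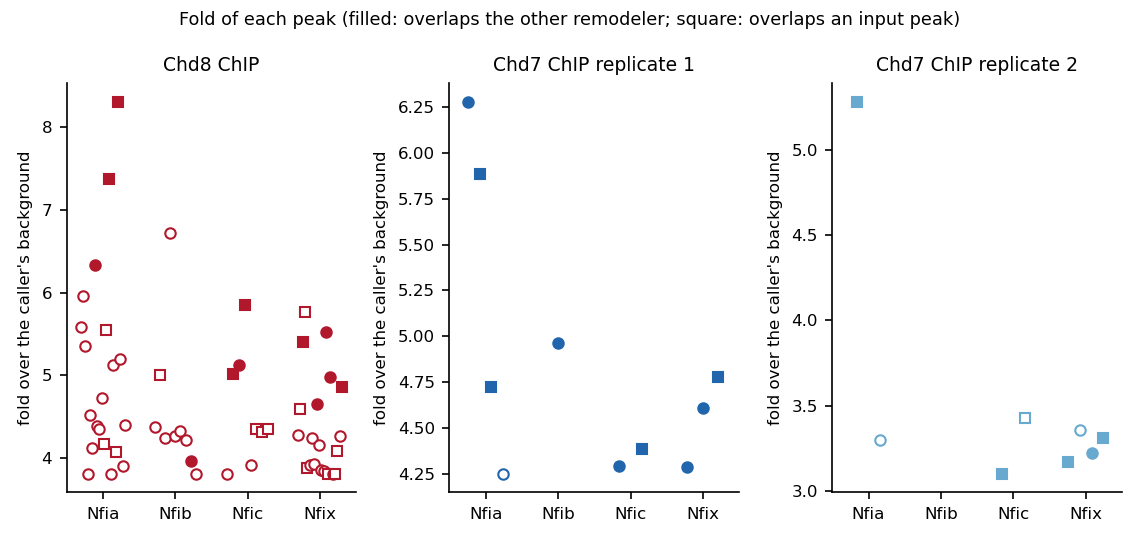
Fold over the caller's background (y axis, not starting at 0, scales differ between panels) of every ChIP peak in the 4 windows, 1 symbol per peak, ordered by position within each gene. Filled symbols overlap a peak of the other remodeler, and squares overlap a peak of any input. The highest symbol of each panel belongs to Nfia, and the strongest Nfib peak in the Chd8 panel is an open circle at 6.72.

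Chd8 peaks of the 4 windows were split by Chd7 overlap, and no such split of the whole Chd8 list is given here for comparison. Across the family, Chd8 peaks that a Chd7 peak overlapped had a median fold of 5.26 and the others 4.27. By gene these medians were 7.37 and 4.40 at Nfia, 5.12 and 4.31 at Nfic, and 4.98 and 3.93 at Nfix, but at Nfib the single shared peak (3.97) was below the median of the others (4.30). Of all 57 Chd8 peaks, 18 overlapped an input 3 peak (31.6%, exact 95% interval 19.9 to 45.2), beside 40.3% of the Chd8 list, and 38 overlapped no input peak, while 46.3% of the list overlapped one of any input. By gene, 15 of 20 were free of input at Nfia, 8 of 9 at Nfib, 12 of 20 at Nfix and 3 of 8 at Nfic. The names inside the files would match input 2 to Chd8, and that input overlapped 2 of the 57 peaks, beside 17.9% of the list. Ends of protein-coding genes took 14 of the 57 (24.6%, 14.1 to 37.8), 11 of them with a neighbour's end, beside 47.1% of the whole list. Ends of lncRNA and other RNA genes with no protein-coding end took 5 more (8.77%, 2.91 to 19.3), beside 5.22% of the list. By gene, protein-coding ends took 0 of 20 Chd8 peaks at Nfia and 1 of 9 at Nfib, whose windows hold no other protein-coding gene. They took 7 of 8 at Nfic and 6 of 20 at Nfix. The intervals treat peaks of 4 selected loci as separate draws and are not tests against the list.

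Genes known to act with or downstream of NFI factors in neural cells were listed to set the family in its pathway. Of 30 such genes, 19 had a Chd8 peak at a gene end, 9 a Chd7 replicate 1 and 11 a replicate 2 peak, and 6 had both Chd7 libraries. The shares over all genes are 41.0%, 10.4%, 17.0% and 5.45% in that order. The 6 were Hes1 and Hes5, effectors of Notch signalling, Pou3f2, a POU factor, Zbtb20, a zinc finger repressor, Ezh2, the methyltransferase of Polycomb repressive complex 2, and Ski, a corepressor of TGF-beta signalling. The highest Chd8 folds were those of Hes5 (6.47), Zbtb20 (5.68) and Srgap2 (5.66), and the median over the 19 was 4.93, beside 4.85 over all genes with a Chd8 end peak. Inputs 1, 2 and 3 had peaks at the ends of 7, 9 and 17 of the 30, beside 21.9%, 28.4% and 45.2% of all genes.

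Genes with the most similar pattern were sought over the 8 lists by the sum of absolute differences in peaks per 100 kb of window. For Nfib they were Otud5, Rln1 and Tnfsf13b (sums of 0.904, 1.38 and 1.72), and for Nfia Fam122a, Cdc14b and Aggf1 (1.76, 1.94 and 1.96). Nfic was nearest to Triobp, Rara and Ppp1r13l (3.21, 3.33 and 4.10), and Nfix to Gm39002, Gm39566 and Gnai2 (4.86, 4.98 and 5.19). The sums grow with the densities, so those of Nfic and Nfix are larger. None of these genes was near the count of 20 Chd8 peaks, the highest among them being 12 at Gnai2. Matching was on density and not on window length, so this difference in counts does not set the members apart. Fam122a, Cdc14b and Aggf1 had 3, 5 and 4 Chd8 peaks in windows of 102, 182 and 125 kb, beside 641 kb for Nfia. The Gnai2 window was 121 kb, beside 197 kb for Nfix.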

How the data were processed

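The deposited files are broad peak lists, 1 per library, in mm10, and per the submitters' processing notes the tools were Bowtie2, SAMtools, Picard and MACS. No source used here gives their versions, settings or the control used for calling. Each deposited peak carries a score (10 times the −log10 q to within 1 unit), a fold (ratio) over the caller's local background, a −log10 p and a −log10 q, all computed by the authors. Reads were not used, so depth is unknown.

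ChIP peaks sharing 1 bp or more with a mock peak were left out. Genes and starts were those of RefSeq GRCm38.p6. A peak was placed by overlap of at least 1 bp, first at a gene end, then in the body, then in the flank. Shares carry exact 95% Clopper-Pearson intervals (Python 3.11.15, SciPy 1.17.1). The overlap code was tested on simulated intervals. No test between groups was made, since Chd8 has 1 library and the members and lists were chosen with earlier results of these data known. Named genes were the members, coding genes in their windows, the 3 genes of most similar pattern per member, and from the pathway list the 3 highest Chd8 folds and all genes with both Chd7 libraries. RefSeq starts were used for Nfia, Nfic and Nfix. The result at 1 neighbour of Nfix is not reported here. Alternatives covered thresholds, filters, windows, placement, overlap and single Chd7 libraries.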

Additional observations from a re-analysis of the deposited data

How the results depend on the processing

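Counts over the 4 windows were recomputed under other settings. With a −log10 q of at least 5, Chd8 peaks fell from 57 to 7, Chd7 replicate 1 peaks from 10 to 1, replicate 2 peaks from 8 to 1, Chd8 peaks with Chd7 from 12 to 2, those with input 3 from 18 to 4, and members with Chd8 at an end from 2 to 0. With a fold of at least 5 the values were 17, 2, 1, 2, 8 and 0. Without peaks of the matching input, Chd8 peaks with Chd7 were 6 and members with Chd8 at an end 1. Without peaks of any input, chosen after the data were seen, replicate 1 and 2 had 6 and 3 peaks and Chd8 with Chd7 gave 6. Flanks of 10 kb gave 5 replicate 2 peaks, 7 Chd8 peaks with Chd7 and 10 with input 3. A reciprocal overlap of 50% gave 5 with Chd7 and 6 with input, and input 2 in place of input 3 gave 2. Without Chd7 replicate 1 or 2 in turn, Chd8 peaks with Chd7 ranged from 5 to 9 and members with Chd7 at an end were 0 in both. Members with Chd8 at an end were 1 when peaks were placed by midpoint, 4 with ends of 5 kb and 4 with boundaries or starts. Members with Chd7 at an end were 0 under all 10 alternatives run. Most genes also lacked a Chd7 end peak as reported, so this stable count does not set the family apart.

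Genes with more Chd8 peaks than Nfia, 0 as reported, were 22 with a −log10 q of at least 5 and 5 with flanks of 100 kb. Genes with more than Nfix were 1266 with that −log10 q, 494 with a fold of at least 5, 11 without matching-input peaks, 8 without peaks of any input, and 4 with flanks of either 10 or 100 kb. These rankings were examined under other settings only after the data were seen. The cause of these shifts was not tested, beyond the smaller number of peaks or the changed windows that the settings themselves leave. No paired analysis was possible because no test between groups was made and Chd8 has a single library. Depth is unknown, so no floor can be given for an absent peak.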
